A study of Drosophila melanogaster with 4 samples.

Results

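The Bithorax complex of Drosophila melanogaster holds the Hox genes Ubx, abd-A and Abd-B, and its cover by dRING was read from the deposited lists of enriched intervals. The members were chosen by position alone, as every interval of arm 3R that overlaps the stretch from 12.48 to 12.815 Mb in FlyBase release 5, a window of 335 kb drawn around the 3 genes and their regulatory DNA. It held 35 of the 3458 intervals of ChIP replicate 1 on the 6 chromosome arms, 43 of the 3048 of ChIP replicate 2 and 38 of the 7386 in the list of the whole series. Intervals of a single library are called clusters here and those of the series list regions. The study used ChIP-seq, the sequencing of DNA that an antibody brings down with its target from fixed chromatin, on embryos of the wild-type strain Oregon-R collected at 14 to 16 h. It made 2 ChIP libraries with the antibody dRING Q3200 and 2 input libraries, 1 for each ChIP library. All libraries came from whole embryos fixed with 1.8% formaldehyde, so cells of every segment were pooled. No read counts come with the lists, so the depth behind an interval is unknown. The labels do not tell whether the replicates were separate embryo collections, and the spread between them may be technical.

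dRING is encoded by Sex combs extra. As a member of Polycomb repressive complex 1 it puts ubiquitin on histone H2A. Polycomb complexes are brought to DNA at Polycomb response elements, short sequences of which the Bithorax complex has many, and the repressive marks then spread over the wide stretches between them. Ubx sets the identity of the posterior thorax and the first abdominal segment, abd-A that of the middle abdomen, and Abd-B that of the posterior abdomen and the genitalia. Polycomb complexes keep each gene silent in the segments in front of its own domain. Whole embryos mix such silent cells with cells in which the gene is active.

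In the RefSeq gene table of release 6, 16 genes run in order from Ubx to Abd-B. Of these, 6 code for proteins, 7 are long noncoding RNAs, 2 are microRNAs and 1 is an antisense RNA. After Ubx come the noncoding RNA bxd, named for a regulatory stretch of Ubx, and Glut3, a glucose transporter gene. Next stand abd-A, the noncoding RNAs iab8 and iab4 and the microRNAs mir-iab-4 and mir-iab-8, which are known to repress Ubx and abd-A. Abd-B is the last of the 3 Hox genes. Arm 3R is numbered in the same direction in both releases, so the lower end of the window is the Ubx side and the upper end the Abd-B side. Gene positions of release 5 were not used here, so intervals are placed by their coordinates and by the side they lie on, and no interval is assigned to a promoter or a named element.

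dRING clusters filled most of the window in replicate 1 and less of it in replicate 2. Replicate 1 clusters covered 261 kb, or 77.8% of the window, against 7.57% of all arms. Replicate 2 clusters covered 137 kb, or 40.9%, against 5.94% of all arms. The mean of the replicates was 59.4% ± 26.1 (SD, n = 2). Regions of the series list covered 300 kb, or 89.5%, against 13.6% of the arms. In length the window is 0.278% of the arms. It took in 2.86% of the bases covered in replicate 1, 1.91% in replicate 2 and 1.83% in the series list. With 2 libraries no test over libraries was made, and cover is given as a description.

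**Figure D1:**
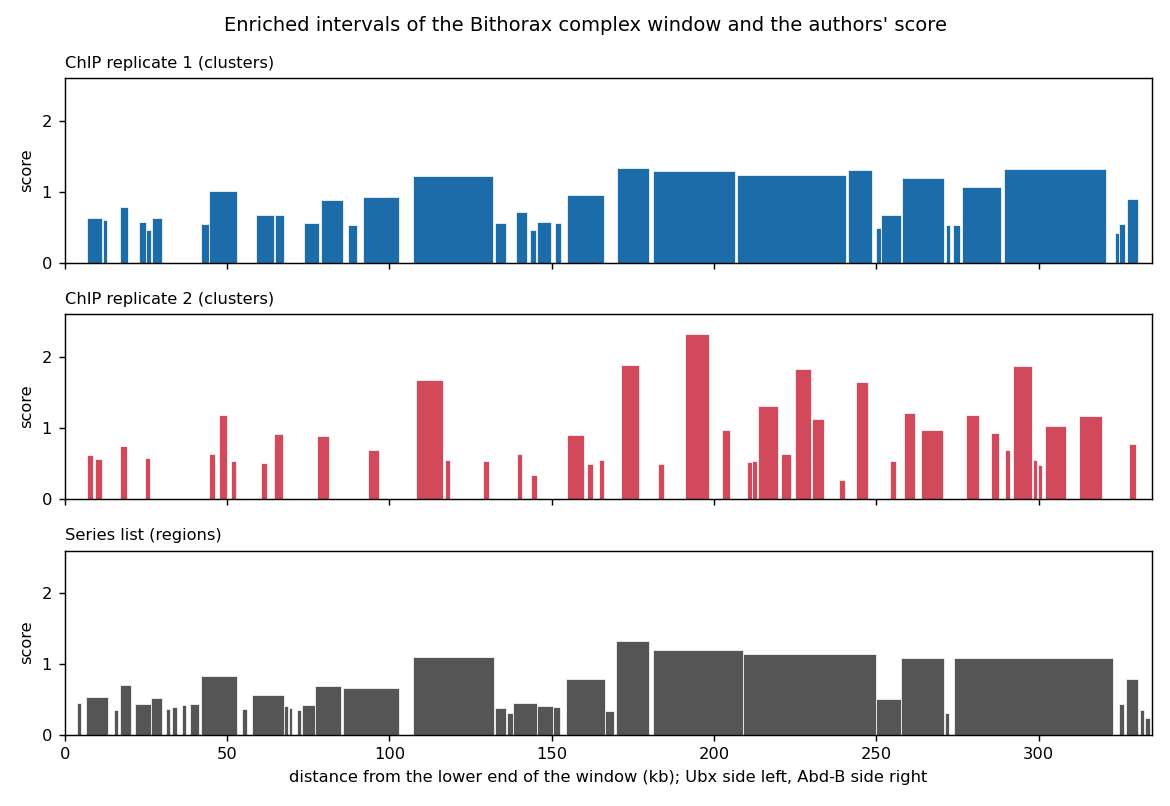
Enriched intervals of the Bithorax complex window in ChIP replicate 1, ChIP replicate 2 and the series list, as bars whose width is the interval and whose height is the authors' score (no stated scale), against distance from the lower end of the window in kb. Replicate 1 shows long bars that reach at most 1.34, and replicate 2 shows short bars of which the highest is 2.32.

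The replicate 2 clusters lay almost wholly within the stretches marked in replicate 1. Both replicates covered 135 kb together, which was 98.8% of the replicate 2 bases and 51.9% of the replicate 1 bases in the window. Over all arms the same shares were 78.4% and 61.6%. Replicate 2 bases outside replicate 1 came to 1.62 kb. All 43 replicate 2 clusters met a replicate 1 cluster by at least 1 bp (100%, exact 95% binomial interval 91.8 to 100%), beside 76.8% over all arms. Of them, 37 lay wholly inside a single replicate 1 cluster, a count for which no share over all arms is given here. In the other direction, 23 of the 35 replicate 1 clusters (65.7%, 47.8 to 80.9%) met a replicate 2 cluster, close to the 63.3% over all arms. Replicate 1 covered 77.8% of the window and 7.57% of the arms, and replicate 2 covered 40.9% and 5.94%. A cluster placed anywhere in the window was thus likelier to meet the other list. These shares therefore do not compare agreement between the window and the arms. The binomial intervals hold for counting error only, and they take as independent clusters that can be fragments of the same stretch.

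The 12 replicate 1 clusters with no partner lay in the lower part of the window up to 12632926 and in the upper part from 12729942, with none between. Their scores ran from 0.41 to 0.64 with a median of 0.54, and the median of the 23 shared clusters was 0.89. The deposited score is the authors' own value, its scale is not stated, and it is compared within a list. The clusters with no partner were 1305 to 4257 bp long. The longest lay from 12625358 to 12629614 with a score of 0.57, and the one with the highest score from 12506737 to 12509852 with 0.64. A pair of them stood side by side near the upper end, from 12803430 to 12804745 with a score of 0.41 and from 12804786 to 12806517 with 0.54.

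Cover in the window was set against 355 consecutive windows of equal length on the arms that do not touch it. The Bithorax complex window had 135 kb covered in both replicates, where the others ranged from 0 to 113 kb with a median of 12.6 kb. In replicate 1 the others ranged up to 47.5% cover (median 5.52%), and in replicate 2 up to 34.6% (median 5.11%). It also held the most clusters, with 35 in replicate 1 and 43 in replicate 2, against at most 34 and 27 in any other window. The Bithorax window was drawn around the complex, whereas the others began at the arm ends, so windows at every base position were also tried, an alternative chosen after seeing the data. The best placement elsewhere had 53.3% in replicate 1, on 3R from 2530675 to 2865675, and 35.6% in replicate 2, on 2R from 8596434 to 8931434. Cover of the Bithorax window was thus 1.46 times the best placement elsewhere in replicate 1 and 1.15 times in replicate 2. These are ranks among places in the genome with no test.

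**Figure D2:**
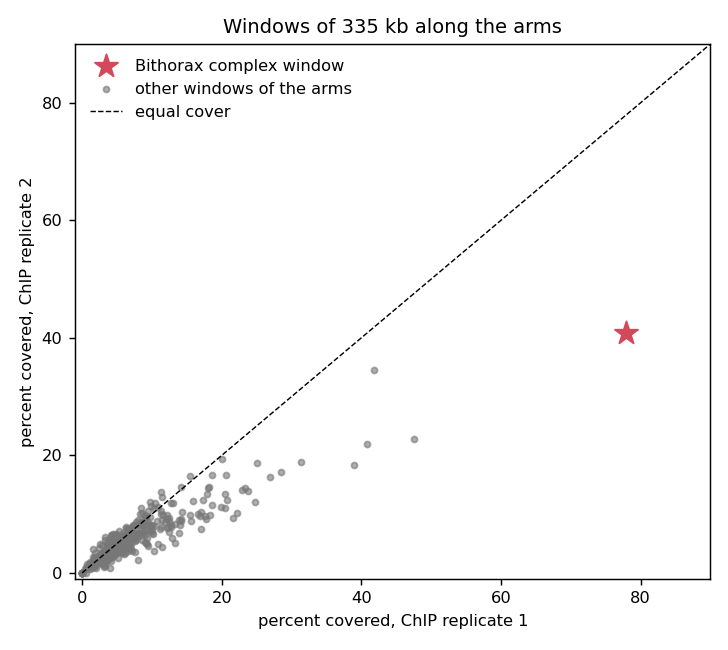
Percent covered in ChIP replicate 1 (x axis) and in ChIP replicate 2 (y axis) for the Bithorax complex window (star) and 355 other windows of 335 kb (grey points), with a dashed line at equal cover. The Bithorax window, at 77.8% and 40.9%, lies beyond all other points on both axes and below the line.

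Cover was wider on the Abd-B side of the window than on the Ubx side. In the lowest of 4 equal parts of the window, replicate 1 covered 52.5% and replicate 2 covered 26.4%. In the next part replicate 1 covered 79.7% and replicate 2 covered 32.8%. The third part, from 12647500 to 12731250, had 92.5% in replicate 1 and 51.5% in replicate 2, and the uppermost had 86.8% and 52.8%. Both libraries thus covered more of either upper part than of either lower one. The share of bases in neither replicate was 46.1% in the lowest part and 7.54% in the third. The median score of clusters centred in a part was 0.63, 0.57, 1.29 and 0.68 in replicate 1 from the lowest part up, and 0.62, 0.55, 1.05 and 0.95 in replicate 2. The third part had the highest median in both libraries, from 5 clusters of replicate 1 and 12 of replicate 2.

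Stretches of at least 4 kb with no cluster in either replicate were found only in the lower part of the window and at its edges. Away from the edges there were 4, with a total of 28.3 kb, and the last of them was centred 105 kb from the lower end. The longest ran from 12509853 to 12522075 (12.2 kb), where the series list nevertheless listed 6 regions over 55.9% of the bases. Shorter ones ran from 12533148 to 12538862 (5.72 kb) and from 12547574 to 12553665 (6.09 kb), which the series list covered for 49.1% and 69.6%. The stretch from 12583084 to 12587387 (4.30 kb) was nearly empty in the series list too, at 0.91% of its bases. It separates the broad region on its upper side, from 12587349 to 12612242, from those nearer Ubx. In the upper part of the window the longest stretch with no cluster away from the edge was 3.78 kb. At the edges, 6.99 kb at the lower end and 4.47 kb at the upper end held no cluster.

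Cover was far lower on both sides of the window than in it, and lower above it than below. In the 335 kb above, from 12815001 to 13150001, replicate 1 covered 4.20% and replicate 2 covered 4.10%. In the 335 kb below, replicate 1 covered 16.0% and replicate 2 covered 11.1%. The nearest 50 kb had 5.57% and 4.57% above, and 10.5% and 15.8% below, in the same order. The 10 kb directly above held no interval of any list. The 10 kb directly below held no replicate 1 cluster, 1 replicate 2 cluster with a score of 0.71 and 1 series region with a score of 0.29.

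**Figure D3:**
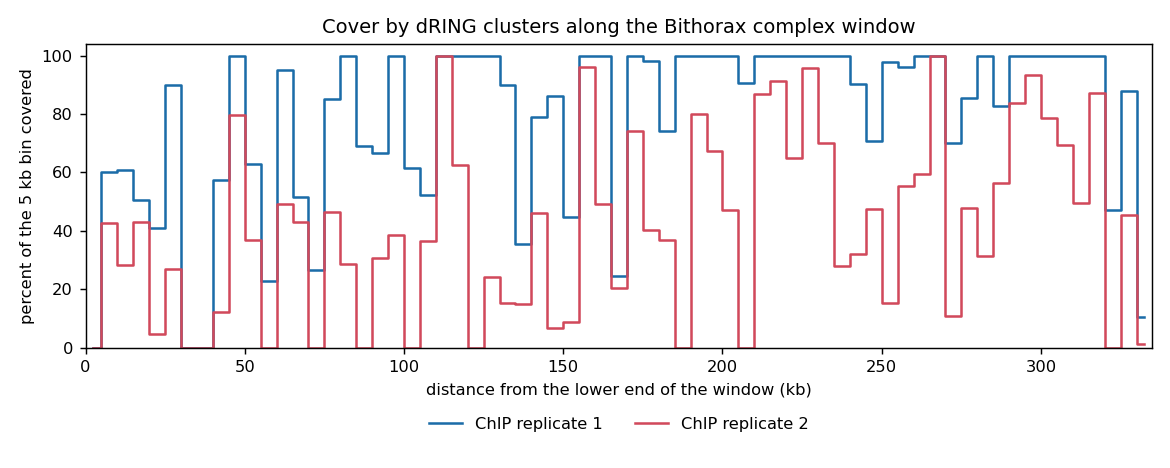
Percent of each 5 kb bin covered by clusters of ChIP replicate 1 (blue) and ChIP replicate 2 (red), against distance from the lower end of the window in kb. Replicate 1 fills 28 of the 67 bins completely and replicate 2 fills 2, and no bin has more cover in replicate 2.

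The replicates differed in how continuous the cover was. Among 67 bins of 5 kb, replicate 1 filled 28 completely and replicate 2 filled 2, from 12590000 to 12594999 and from 12745000 to 12749999, both also full in replicate 1. Replicate 1 left 3 bins empty and replicate 2 left 11, the 3 included. Replicate 1 covered more of the bin in 62 of the 67, replicate 2 in 0, and 5 were equal. Bins of the arms were not counted beside these. The 5 bins that differed most began at 12600000, 12665000, 12685000, 12730000 and 12625000. The bins at 12600000 and 12665000 were fully covered in replicate 1 and empty in replicate 2. The bin at 12685000 had 90.7% in replicate 1 and 0 in replicate 2, the bin at 12730000 had 98.0% and 15.4%, and the bin at 12625000 had 86.0% and 6.78%.

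The series list had 38 regions in the window, and clusters of both replicates met 17 of them (44.7%, exact 95% interval 28.6 to 61.7%), beside 28.4% over all arms. The 17 regions held 86.2% of the listed bases of the window, beside 50.0% over all arms. Only replicate 1 clusters met another 7 (18.4%, beside 15.3% over all arms), and only replicate 2 clusters met 0 (beside 8.69%). Met in neither were 14 (36.8%, beside 47.6%). Regions met in neither had scores of 0.23 to 0.45 (median 0.36) and were 1.02 to 2.70 kb long. The highest score among them was at the region from 12483848 to 12484905. Of the 38 regions, 7 were shorter than the shortest replicate cluster, beside 30% over all arms, so a replicate list could not have marked such a region as a cluster of its own length. Regions met in replicate 1 alone had scores of 0.31 to 0.51, and the highest was at 12506720 to 12509924.

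Of the 17 regions, the 3 nearest the lower end were 3.57 to 6.80 kb long and had series scores of 0.43 to 0.70. The region from 12486566 to 12493361 had a series score of 0.53, with clusters of 0.63 and 0.60 in replicate 1 and of 0.61 and 0.56 in replicate 2. The region from 12496890 to 12500457 had a series score of 0.70, and 1 cluster in each library, with 0.79 in replicate 1 and 0.75 in replicate 2. It had the smallest difference in cover of the 17, at 71.1% in replicate 1 and 60.2% in replicate 2. The region from 12501678 to 12506578 had the lowest series score of the 17 (0.43), with a highest cluster score of 0.58 in both libraries.

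Above the longest empty stretch, 4 broader regions followed on the Ubx side. The region from 12521907 to 12533201 (11.3 kb) had a series score of 0.83, and its strongest clusters had 1.01 in replicate 1 and 1.18 in replicate 2. The next, from 12537614 to 12547655 (10.04 kb), had 0.57 in the series list, 0.68 in replicate 1 and 0.91 in replicate 2. From 12557018 to 12565203 the highest scores were 0.89 in replicate 1 and 0.89 in replicate 2. The region from 12565698 to 12583083 (17.4 kb) was the least covered of the 17 in replicate 2, with 82.3% in replicate 1 and 19.9% in replicate 2. Its only cluster in replicate 2, with a score of 0.68, ran from 12573471 to 12576923.

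The region from 12587349 to 12612242 (24.9 kb, series score 1.10) was a single cluster in replicate 1 with a score of 1.22. In replicate 2 it held 3 clusters, of which the one from 12588178 to 12596401 had a score of 1.67 and was the longest replicate 2 cluster of the window at 8.22 kb. The other two had scores of 0.55 and 0.54 and lay farther up, so the strong part stood at the lower end of the region. Between it and 12634418 no interval reached the highest score that its list had in this 24.9 kb region. The region from 12618171 to 12625358 had 0.45 in the series list, at most 0.71 in replicate 1 and at most 0.63 in replicate 2. The region from 12634418 to 12646417 (12.0 kb) was again a single replicate 1 cluster (0.96), with 3 clusters in replicate 2 of 0.90, 0.48 and 0.55.

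The highest scores of the window lay above these, in the part from 12647500 to 12731250 and near the upper end. The region from 12649751 to 12659856 (10.1 kb) had the highest series score, 1.32, and held 1 cluster in each library. Its replicate 1 cluster had the highest score of that list in the window (1.34), and its replicate 2 cluster the second highest (1.88). The next region, from 12661259 to 12688784 (27.5 kb), had a series score of 1.20, with 98.2% covered in replicate 1 and 42.1% in replicate 2. The highest replicate 2 score of the window, 2.32, was in that region, at the cluster from 12670993 to 12678369. It lay inside the replicate 1 cluster from 12661294 to 12686539 (25.2 kb, score 1.29), where the other replicate 2 clusters had 0.48 and 0.98. The wide replicate 1 cluster thus held a single strong site in replicate 2 with weaker ones on both sides.

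The region from 12688922 to 12729749 (40.8 kb, series score 1.13) was split into 2 clusters in replicate 1 and 8 in replicate 2. The replicate 1 cluster from 12687003 to 12720620 was the longest of the window at 33.6 kb and the 5th longest of its list. Its score was 1.24, and it held 7 replicate 2 clusters with scores of 0.52, 0.53, 1.31, 0.63, 1.83, 1.13 and 0.27 in order of position. Of these, the cluster from 12704858 to 12709789 (1.83) had the 4th highest replicate 2 score of the window. The second replicate 1 cluster, from 12721105 to 12728474, scored 1.32 and met a replicate 2 cluster of 1.64. That replicate 2 cluster, from 12723609 to 12727376, was the next after the 5 highest and is named after its value was seen.

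On the Abd-B side, the region from 12729763 to 12737673 (7.91 kb) had a series score of 0.51, with at most 0.68 in replicate 1 and 0.54 in replicate 2. The region from 12737692 to 12750843 (13.2 kb, series score 1.08) was the best covered of the 17 in replicate 2, with 98.5% in replicate 1 and 77.1% in replicate 2. The region from 12753765 to 12802847, at 49.1 kb the longest of the window, had a series score of 1.08. It held 3 clusters in replicate 1 and 8 in replicate 2, and the replicate 2 cluster from 12771948 to 12777892 was the strongest there, at 1.88. Farther up, the replicate 2 cluster from 12792518 to 12799362 had 1.17 and was the third longest of that list in the window, at 6845 bp. The replicate 1 cluster over both, from 12769160 to 12800832 (31.7 kb), had 1.32, the second highest of the window. The last of the 17, from 12807006 to 12810523 (series score 0.79), had a single cluster in each library, with 0.89 in replicate 1 and 0.77 in replicate 2.

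**Figure D4:**
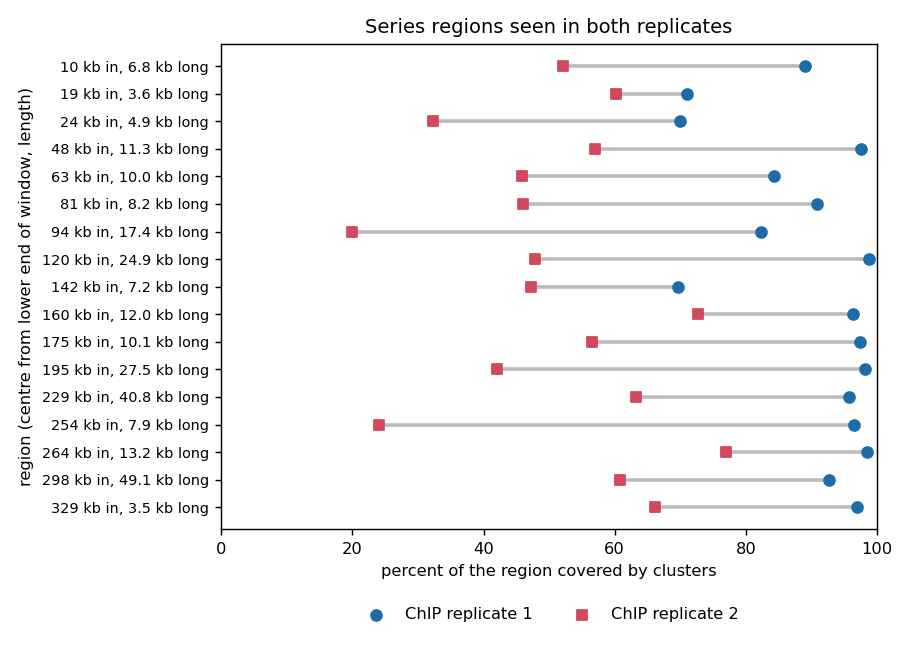
Percent of each of the 17 series regions met in both replicates that was covered by clusters of ChIP replicate 1 (blue circles) and ChIP replicate 2 (red squares), one line per region from the lower end of the window down to the upper end. Replicate 1 lies to the right in all 17, by 10.9 to 72.4 percentage points.

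Replicate 1 covered more than replicate 2 in all 17 regions, by 10.9 to 72.4 percentage points with a median of 37.7. The same count over all arms is not given here, so it is not shown to be particular to the window. The median cover was 95.7% in replicate 1 (69.7 to 98.9%) and 52.1% in replicate 2 (19.9 to 77.1%). In 7 of the regions replicate 2 had the larger number of clusters, in 5 the smaller, and in 5 the numbers were equal. The highest cluster score was in replicate 2 in 9 regions and in replicate 1 in 8, though how scores compare between lists is not known. Taken by cluster, 13 of the 23 shared replicate 1 clusters (56.5%) met a replicate 2 cluster of higher score. On the rest of the arms 77.1% of 2165 did, and the contrast was not tested.

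Long regions elsewhere on the arms showed a like difference in cover. The 10 regions of 10 kb or longer in the window had median covers of 96.9% in replicate 1 and 56.8% in replicate 2, and the 96 on the rest of the arms had 94.3% and 54.7%. The median difference was 39.5 points in the window (21.4 to 62.4) and 36.6 points elsewhere (-4.45 to 80.5). The 8 replicate 1 clusters of 10 kb or longer in the window were covered for 59.9% of their bases by 27 replicate 2 clusters, or 6.04 kb for each. The 65 elsewhere were covered for 66.0% by 155, or 6.93 kb for each. The difference over the whole window, 37.0 points against 1.63 points over all arms, came with a larger share of long intervals in the window. Cover was 77.8% and 40.9% in the window but only 7.57% and 5.94% on the arms. A difference in points cannot exceed the higher cover, so the window and the arms are not on the same footing. No test of this contrast was made, and its cause was not tested.

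Intervals of 10 kb or longer made up a larger share of the window than of the arms in replicate 1 and in the series list, but not in replicate 2. In replicate 1, 8 of 35 clusters (22.9%, exact 95% interval 10.4 to 40.1%) were 10 kb or longer, beside 2.11% over all arms. In the series list 10 of 38 regions (26.3%, 13.4 to 43.1%) were so long, beside 1.44%. In replicate 2, 0 of 43 clusters were that long, which allows a share of up to 6.98% by the limit of 3 counts and 8.22% by the exact interval, beside 0.295% over all arms. Median lengths in replicate 2 were 2330 bp in the window and 2040.5 bp on the arms. The highest decile of scores held 0 of 35 clusters in replicate 1, which allows up to 8.57% by the limit of 3 counts and 10.0% by the exact interval, and 1 of 43 in replicate 2 (2.33%, 0.059 to 12.3%), each beside 10% over all arms. Both exact intervals reach that share. That replicate 2 cluster was the one from 12670993 to 12678369, ranked 170 of 3048. In the series list 6 of 38 regions (15.8%, 6.02 to 31.3%) were in the highest decile, beside 10% over all arms. The highest score on the arms was 3.99 in replicate 1 and 4.46 in replicate 2, well above the 1.34 and 2.32 reached here.

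The middle of the score distribution in the window differed little from that of the arms. Median scores were 0.67 in the window and 0.60 on the arms in replicate 1, 0.69 and 0.71 in replicate 2, and 0.44 and 0.42 in the series list. With medians weighted by interval length, the window minus the arms was 0.48 in replicate 1, 0.18 in replicate 2 and 0.60 in the series list. The sign in replicate 2 thus turned with the weighting, from a difference of -0.01 in the unweighted medians.

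**Figure D5:**
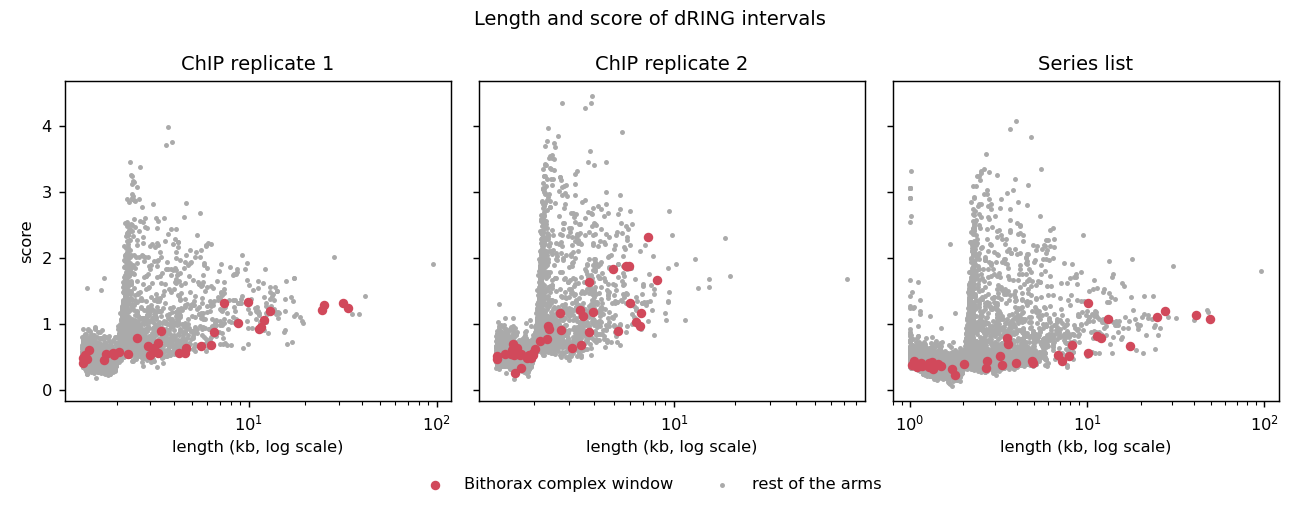
Length in kb (x axis, log scale) and the authors' score (y axis) of each interval in the Bithorax complex window (red) and on the rest of the arms (grey), for ChIP replicate 1, ChIP replicate 2 and the series list. The red points reach no further than 1.34, 2.32 and 1.32 in the 3 lists, and longer ones tend to have higher scores.

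Median scores were also set side by side within length classes. From 2 to 5 kb, the median in replicate 1 was 0.61 over 12 clusters of the window and 0.78 over 1524 clusters elsewhere, whose quartiles were 0.62 and 1.14. In replicate 2 the medians were 0.93 over 15 clusters and 1.02 over 1535 (quartiles 0.75 and 1.60). From 5 to 10 kb they were 0.95 over 6 clusters and 1.20 over 160 (quartiles 0.94 and 1.51) in replicate 1, and 1.31 over 9 and 1.46 over 95 (quartiles 1.26 and 2.04) in replicate 2. Of these 4 medians of the window, the one of replicate 1 from 2 to 5 kb lay below the lower quartile elsewhere, and the others lay between the quartiles. Under 2 kb, they were 0.53 over 9 clusters and 0.49 over 1674 in replicate 1, and 0.54 over 19 and 0.55 over 1366 in replicate 2. At 10 kb or longer, replicate 1 had 1.21 over 8 clusters and 1.23 over 65. In the series list the medians at 10 kb or longer were 1.08 over 10 regions and 1.06 over 96. Under 2 kb they were 0.36 over 14 and 0.39 over 4777. From 2 to 5 kb they were 0.426 over 10 and 0.546 over 2232, with a lower quartile of 0.434 elsewhere. From 5 to 10 kb they were 0.52 over 4 and 0.85 over 243, with a lower quartile of 0.65. The series medians of the window thus lay below the lower quartile elsewhere in these last classes. These length classes were chosen after seeing the data, and no test was made between them.

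Longer intervals of the window had higher scores in each list. Spearman's rho of score and length was 0.89 over 35 clusters of replicate 1, 0.83 over 43 of replicate 2 and 0.79 over 38 regions of the series list. Over all arms it was 0.69, 0.72 and 0.35. For the 23 shared replicate 1 clusters, rho of their score and the highest score of the replicate 2 clusters they met was 0.89, and it was 0.83 over 2188 clusters on all arms. Taken from the 43 replicate 2 clusters, rho with the highest replicate 1 score was 0.32, against 0.77 over 2341 on all arms. Weak and strong replicate 2 clusters of the window often lay in the same wide replicate 1 cluster. These points are neighbouring places in the same libraries, so rho is a description.

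When regions met in both replicates and less than 10 kb apart were joined into domains, 1427 domains formed on the arms. The domain of the Bithorax complex, from 12521907 to 12810523, had 243 kb covered by 14 of the 17 regions, the most of all domains and 1.93 times the next. The other 3 regions, nearest the lower end, lay beyond a gap of more than 10 kb. With the highest cover after it came the domain on 3L from 12557255 to 12703056 (126 kb covered) and the domain on 3R from 2706479 to 2840078 (111 kb covered). All 3 shared the difference between the libraries. The Bithorax domain had 85.1% of its span covered in replicate 1 and 44.9% in replicate 2, the 3L domain 82.5% and 40.9%, and the other 3R domain 75.6% and 33.0%. Their highest cluster scores differed: the Bithorax domain reached 1.34 in replicate 1 and 2.32 in replicate 2, the 3L domain 1.50 and 1.89, and the other 3R domain 1.70 and 3.01. Not every large domain had such a difference in cover, as seen in domains named after their values were seen. The domain ranked 4, on 2R from 8835830 to 8931418, had 99.9% in replicate 1 and 95.3% in replicate 2. The domain ranked 10 had 83.7% and 79.6%, and those ranked 5 to 9 differed by 21.3 to 40.9 points. No test of these differences was made.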

How the data were processed

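The deposited lists hold enriched intervals with a score, which the authors made for each ChIP library with its input, per the labels, and for the whole series. Positions refer to FlyBase release 5, per the file headers. The submitters' processing notes list Bowtie 0.12.7. The region caller, its threshold, the scale of the score and the way replicates were combined are not stated in the labels or file headers. The shortest cluster was 1301 bp in both replicate lists and the shortest region 1001 bp. Depth is unknown, and input values of their own were not used here.

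Intervals on the 6 main chromosome arms were read with Python 3.11.15 and numpy 2.4.6. Exact binomial (Clopper-Pearson) 95% intervals were made with scipy 1.17.1 and figures with matplotlib 3.10.9. The limit for a count of 0 is 3 counts. Overlap means at least 1 bp, and positions are 1-based. Overlap and cover were tested on simulated intervals. The window, rules and alternatives were chosen with earlier results of these data known. The rule named the regions met in both replicates, the 5 highest and 3 longest clusters per replicate, stretches of 4 kb or more with no cluster, the 5 bins that differed most and the next 2 domains. Flanks, length classes and long regions were added after seeing the data. Motif and protein comparisons planned at the start were not made, since sequences were not used here.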

Additional observations from a re-analysis of the deposited data

How the results depend on the processing

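Of 53 recomputed values, 43 kept their direction and stayed within the spread between replicates, the exact interval or 1.5 times, 8 moved and 2 reversed. No value has a test, and 2 libraries give only a spread. For cover the spread was an SD of 26.1 points, made from the same 2 replicates that were judged by it. Replicate 2 cover of 28.8% from clusters above the median score, against 40.9% from all, counted as kept. These limits are wide, so the count of 43 does not show that the values are stable. Counting as shared only clusters overlapped over at least 50% of their length lowered the share in replicate 1 to 42.9%. Requiring each replicate to cover at least 50% of a region left 9 regions, where 17 were met by 1 bp. With replicate 2 alone 17 were met and with replicate 1 alone 24. Shares over all arms under the 50% rules are not given here, so neither drop is shown to be particular to the window. The median score in the window minus that on the arms was 0.48 in replicate 1, 0.18 in replicate 2 and 0.60 in the series list when weighted by length. In replicate 2 it was -0.014 unweighted and 0.012 with arm 3R as the background, so the sign there is not fixed. Merging intervals less than 1 kb apart gave median lengths in the window of 9302 bp in replicate 1, 3404 bp in replicate 2 and 9634 bp in the series list. Restricted to regions under 10 kb, rho of score and length in the series list was 0.52. The window ranked 1 by covered bases in all alternatives run. Its largest domain covered 164 to 258 kb with gaps of 5 and 20 kb and 243 to 260 kb with either replicate alone. The extent of that domain depended on the gap. It began at 12634418 with 5 kb, which leaves out the Ubx side, at 12521907 with 10 kb and at 12486566 with 20 kb. The cause of these changes was not tested. No paired analysis was possible because no result comes from a test and the inputs have no values of their own here.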
